A study of Mus musculus with 8 samples.

Results

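Histones are supplied to chromatin along 2 routes, and 10 genes that serve them are described here by their APOBEC2 chromatin immunoprecipitation peaks, out of 21887 protein-coding genes. They are H3f3a, H3f3b, H2az1, H2az2, H2ax and H1f0, which encode variant histones, Asf1a, Asf1b and Nasp, which encode histone chaperones, and Slbp, which encodes the protein that binds the stem-loop of histone mRNA. The genes were chosen by function with earlier results of these peak lists known, and the measured values behind the choice are the peaks called inside each gene or within 1 kb of its start or end. The libraries came from C2C12, an established line of mouse myoblasts whose cells stop dividing and form myotubes in low serum. Each of 2 times after the change to 2% horse serum, labelled 14 h and 34 h, had 3 libraries precipitated with a polyclonal rabbit antibody against APOBEC2, a muscle member of the AID/APOBEC deaminase family, and 1 input. All groups share the line and the medium. Peak names in the lists carry the token GFPsh, which the labels do not explain, and the growth protocol gives the earlier harvest as 24 h. Control antibodies and cells without APOBEC2 were not analysed here, and the labels do not say whether replicates came from separate cultures.

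Canonical histones are made in S phase from clustered genes whose mRNAs end in a stem-loop, which SLBP binds to direct their processing and translation. Variant histones such as H3.3 and H2A.Z come from single genes with polyadenylated mRNA, many of them expressed outside S phase, and replace canonical histones in chromatin. Chaperones escort newly made histones: NASP holds soluble H3 and H4, and ASF1 hands them to the complexes that deposit them. H2A.X is phosphorylated at DNA breaks, and H1.0, the product of H1f0, is a linker histone that accumulates in cells leaving the cycle.

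In the order of the replicates, 768, 1327 and 797 peaks had been called at 14 h, and 2209, 5025 and 1068 at 34 h. The lowest −log10 q of a list was between 1.58 and 2.90. No called summit stood on fewer than 10 fragments, so a gene without a peak is not shown to be unbound. In a bulk library, fewer cells with APOBEC2 at a site and less of it per cell cannot be told apart. Of the 5 muscle genes looked up for peaks, Myod1, Myog, Myf5 and Des had none and Acta2 had one in 2 libraries; peak lists hold no expression, so they do not check the cell type.

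Peaks overlapping between at least 2 libraries were found at 6 of the 10 genes at 14 h: H2az1, H2az2, H2ax, Asf1b, Nasp and Slbp. Of all protein-coding genes, 4.27% had such a region. At 34 h, 8 of 10 had one, with H3f3b and Asf1a added, against 8.79% of all genes. The genes were picked with these peaks in view, so nothing is read from the gap to the background. The 34 h count was 5 when replicate 1 or replicate 2 of that time was left out, since H2az2, Asf1a and Nasp had peaks in those libraries and none in replicate 3. By library, 5, 6 and 6 of the 10 genes had a peak at 14 h (all genes 3.72, 6.50 and 3.97%) and 8, 8 and 5 at 34 h (all genes 9.24, 18.1 and 4.70%). H2az1, H2ax, Asf1b and Slbp had a peak in all 6 libraries, as had 2.26% of all genes. H3f3a and H1f0 had none in any library, as had 79.8% of all genes.

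**Figure D1:**
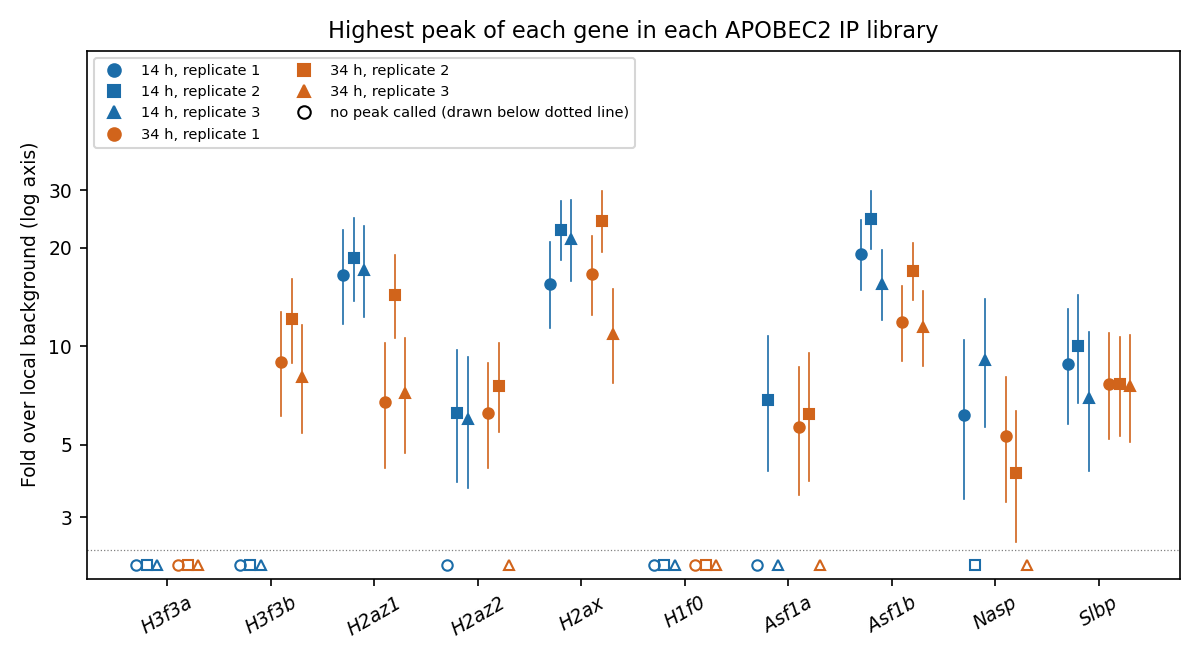
Fold over local background (log axis) of the highest peak of each gene in each library, with blue symbols for 14 h and orange for 34 h. Vertical lines are exact 95% Poisson intervals of the fragment count at the summit, expressed as fold with the background held fixed. Open symbols below the dotted line mark libraries without a called peak. Within a library, H2az1, H2ax and Asf1b stand above H2az2 and Asf1a wherever these have a peak. Across libraries, the lowest H2az1 values overlap those of H2az2 and Asf1a. H3f3a and H1f0 have open symbols only.

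The H3.3 pair differed in presence of a peak. H3f3a and H3f3b encode the replication-independent H3.3. H3f3b had no peak at 14 h and a peak in every library of 34 h, with folds of 8.97, 12.1 and 8.07 in replicates 1, 2 and 3 (mean 9.71 ± 2.11, SD, n = 3). These summits stood on 29, 45 and 27 fragments over a background of 2.34, 2.80 and 2.47. Replicate 2 was the highest, and its interval of fold (8.89 to 16.1) overlapped those of the other replicates (6.11 to 12.8 and 5.41 to 11.6). This pattern, every 34 h library and no 14 h library, was found for 1.04% of all protein-coding genes. H3f3a, on chromosome 1 (180802560 to 180813605), had no peak in any library.

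The H3f3b peaks lay on chromosome 11 (116024271 to 116024808) inside the annotated gene (116021961 to 116026039), 1535 bp from whose upper boundary lies the start in the RefSeq promoter table. Relative to that start, the summits were at −103, −119 and −35 bp, so the peaks covered the promoter of the RefSeq start rather than a site deep in the gene.

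The 250 bases upstream of the start of both genes (RefSeq, GRCm38.p6, minus strand, printed 5′ to 3′ along the gene) are shown because only H3f3b had peaks there. Capitals mark 3 motifs on either strand: the CCAAT box (CCAAT), the CHR element of cell cycle promoters (TTTGAA), and an E2F core of 7 letters (TTNNCGC with each N either C or G), which can overlap each other. H3f3b is at chr11:116024505-116024754 and H3f3a at chr1:180813606-180813855.
H3f3b: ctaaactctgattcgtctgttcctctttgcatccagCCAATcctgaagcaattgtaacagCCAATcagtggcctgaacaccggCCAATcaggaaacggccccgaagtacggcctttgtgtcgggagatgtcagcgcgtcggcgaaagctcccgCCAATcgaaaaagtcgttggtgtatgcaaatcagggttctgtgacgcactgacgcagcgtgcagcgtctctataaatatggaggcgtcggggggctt
H3f3a: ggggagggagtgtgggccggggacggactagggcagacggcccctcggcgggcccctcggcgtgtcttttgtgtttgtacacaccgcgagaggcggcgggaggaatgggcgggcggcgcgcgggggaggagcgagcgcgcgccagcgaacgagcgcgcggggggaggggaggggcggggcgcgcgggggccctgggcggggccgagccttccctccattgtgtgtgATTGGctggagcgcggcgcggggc

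H3f3b held CCAAT at 4 positions, starting at −214, −190, −167 and −97 bp, and H3f3a held it at −24 bp. The windows of both genes, from 250 bp upstream to 50 bp downstream, had no CHR element and no E2F core. GGGCGG, the GC box bound by SP and KLF factors, occurred 6 times in the H3f3a window and not in that of H3f3b. The GC content of the windows was 74.0% for H3f3a and 55.0% for H3f3b, where the median of all 32851 windows was 52.7%.

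Both H2A.Z genes had peaks, and those of H2az1 were the higher. H2A.Z marks nucleosomes beside active promoters and is encoded by both genes. H2az1 had folds of 16.5, 18.6 and 17.1 at 14 h (mean 17.4 ± 1.10, SD, n = 3) and of 6.74, 14.4 and 7.20 at 34 h (9.44 ± 4.27), in the order of the replicates. Its folds at 34 h were all below those at 14 h, and replicate 2 of 34 h, the longest list, came nearest to them. The intervals of fold at 14 h began at 11.7, 13.7 and 12.3, above the upper ends in replicates 1 and 3 of 34 h (10.2 and 10.6) and below that in replicate 2 (19.1).

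At H2az1, fragments at the summit numbered 36, 46 and 39 at 14 h and 20, 46 and 24 at 34 h, over a background of 1.24 to 1.52 and of 2.11 to 2.47. The library with 46 fragments at 14 h thus had a fold of 18.6, and the one with 46 at 34 h, over a higher background, a fold of 14.4. The peaks of the 6 libraries merged into a region on chromosome 3 (137864159 to 137864763) over the gene start.

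H2az2 had folds of 6.27 and 6.00 in replicates 2 and 3 of 14 h and of 6.24 and 7.58 in replicates 1 and 2 of 34 h, with no peak in the remaining library of each time. In the 4 libraries where both genes had a peak, H2az2 was below H2az1. In replicate 1 of 34 h the counting intervals of the pair overlapped (H2az1 4.24 to 10.2, H2az2 4.25 to 8.87). The H2az2 summits of 14 h lay at −249 and −362 bp from the start, with a further peak of fold 5.87 at 76 bp in replicate 2. At 34 h broader peaks, of 488 and 696 bp, had summits at −201 and −89 bp on chromosome 11 (6444238 to 6444933).

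The upstream sequences of the H2A.Z pair, whose peaks were of unlike height, are set out the same way. Several of the peaks covered these letters only in part. H2az1 is at chr3:137864237-137864486 (plus strand) and H2az2 at chr11:6444444-6444693 (minus strand).
H2az1: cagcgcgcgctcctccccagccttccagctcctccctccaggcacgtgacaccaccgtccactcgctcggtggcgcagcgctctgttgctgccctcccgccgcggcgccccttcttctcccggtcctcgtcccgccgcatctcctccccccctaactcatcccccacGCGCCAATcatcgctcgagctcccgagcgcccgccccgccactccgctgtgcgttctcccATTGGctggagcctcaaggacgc
H2az2: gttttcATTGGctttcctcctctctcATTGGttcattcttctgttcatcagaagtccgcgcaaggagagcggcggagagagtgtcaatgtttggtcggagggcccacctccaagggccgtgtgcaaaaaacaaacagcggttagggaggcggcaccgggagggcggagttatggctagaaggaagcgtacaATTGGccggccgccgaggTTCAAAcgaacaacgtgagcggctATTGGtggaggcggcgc

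Of the 9 genes in the promoter table, H2az1 was the one with an E2F core, which overlapped a CCAAT box at −83 to −76 bp. It also held CCAAT at −23 bp and, past the start, at 22 bp. The H2az2 window held 4 CCAAT boxes, at −244, −224, −59 and −17 bp, and a CHR element at −41 bp. The H2az1 summits, between 52 and 95 bp past the start, lay downstream of all the letters printed.

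H2ax had peaks among the higher ones of each list. It encodes H2A.X, the H2A variant phosphorylated around DNA breaks. Folds were 15.5, 22.7 and 21.2 at 14 h (19.8 ± 3.79, SD, n = 3) and 16.6, 24.2 and 10.9 at 34 h (17.2 ± 6.69), so the times overlapped. Summits stood on 43, 90 and 49 fragments at 14 h and 51, 85 and 36 at 34 h. The peaks merged on chromosome 9 (44334261 to 44334774), with summits from −282 to −225 bp relative to the lower boundary of the gene (44334715 to 44336077). The window of the neighbouring gene Dpagt1 took in the same peaks, so they are not assigned to H2ax alone. H1f0, on chromosome 15 (79028212 to 79030504), had no peak; its promoter window had no CCAAT box, CHR element or E2F core and a GC content of 75%.

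The ASF1 pair also differed in the height of its peaks. ASF1 binds H3 and H4 and passes them to CAF-1 during replication and to HIRA outside it; ASF1B is known to follow proliferation more closely than ASF1A. Asf1b had folds of 19.2, 24.5 and 15.5 at 14 h (19.7 ± 4.50, SD, n = 3) and 11.8, 17.0 and 11.4 at 34 h (13.4 ± 3.10). Replicate 2 of 34 h lay within the range of 14 h, and the other replicates of 34 h lay below it. These summits stood on 65, 97 and 66 fragments and on 58, 101 and 57. The background was 2.44, 3.00 and 3.32 at 14 h and 3.98, 5.00 and 4.07 at 34 h, so it did not overlap between the times while the fragments did.

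Asf1a had a peak of fold 6.86 in replicate 2 of 14 h, at 440 bp past its start. At 34 h it had peaks of fold 5.65 and 6.04 in replicates 1 and 2, with summits at −86 and −63 bp (chromosome 10, 53596784 to 53597079), and another of fold 6.23 at 774 bp in replicate 2. The peak of 14 h, called in replicate 2 alone on 17 fragments, did not overlap those called at 34 h. A change of site between the times was not tested. Asf1a lies inside Mcm9, a helicase gene, whose window holds the same peaks. Asf1b exceeded Asf1a in the 3 libraries where both had a peak, and the counting intervals did not overlap in any of them (Asf1b from 19.9, 9.05 and 13.9 upward, Asf1a up to 10.7, 8.67 and 9.56).

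The upstream sequences of the ASF1 pair, at chr8:83955444-83955693 for Asf1b and chr10:53596711-53596960 for Asf1a (both plus strand), show the stretch that holds the Asf1b summits.
Asf1b: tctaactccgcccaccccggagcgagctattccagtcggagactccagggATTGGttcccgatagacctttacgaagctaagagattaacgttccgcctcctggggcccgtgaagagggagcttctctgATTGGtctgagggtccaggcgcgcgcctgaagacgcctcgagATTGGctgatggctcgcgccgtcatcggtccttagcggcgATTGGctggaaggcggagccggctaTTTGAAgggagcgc
Asf1a: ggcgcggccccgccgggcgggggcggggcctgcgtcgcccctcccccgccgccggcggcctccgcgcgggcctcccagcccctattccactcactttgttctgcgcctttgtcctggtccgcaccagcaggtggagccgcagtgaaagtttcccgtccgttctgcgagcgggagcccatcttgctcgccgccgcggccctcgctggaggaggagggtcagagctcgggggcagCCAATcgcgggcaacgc

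Asf1b held 4 CCAAT boxes on the minus strand, at −200, −121, −79 and −39 bp, followed by a CHR element at −14 to −9 bp. Its 6 summits, from −55 to −3 bp, fell around the last of these boxes and the CHR element. Asf1a held CCAAT at −17 bp and GC boxes at −236 and −230 bp. A match describes these letters and says nothing about which factor binds.

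Nasp had peaks in 2 libraries at each time, at different sites. At 14 h, replicates 1 and 3 had folds of 6.18 and 9.09, with summits 1188 and 1169 bp past the start, inside the gene (chromosome 4, 116626696 to 116626868). At 34 h, replicates 1 and 2 had folds of 5.30 and 4.10, with summits at −142 and −55 bp (116627918 to 116628188). These peaks also lay inside the annotated gene, whose upper boundary (116628676) is 725 bp from the start in the promoter table. The fold of 4.10 stood near the bottom of its list, at percentile 6.80. It was the weakest of the genes' highest peaks, and with a −log10 q of 4.44 it was lost at a threshold of 5. Summits stood on 12 to 20 fragments, and the intervals of fold (5.65 to 13.9 for the highest, 2.52 to 6.35 for the lowest) overlapped.

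Slbp had a moderate peak of much the same fold in every library. Its folds were 8.83, 9.99 and 6.96 at 14 h (8.59 ± 1.53, SD, n = 3) and 7.69, 7.65 and 7.57 at 34 h (7.64 ± 0.0631), on 16 to 32 fragments. The 34 h values lay within the range of 14 h. Their SD was far smaller than the counting error, since the intervals of fold at 34 h began between 5.12 and 5.31 and ended between 10.7 and 11.0. The summits were at −81, −85 and −56 bp at 14 h and −85, −72 and −103 bp at 34 h (chromosome 5, 33652165 to 33652813). A second, lower summit was called past the start in replicate 1 of 14 h (225 bp, fold 7.93) and in replicates 1 and 2 of 34 h (299 and 283 bp, folds 4.58 and 4.52). Tmem129, whose boundary is close by, takes in the same peaks.

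Slbp upstream letters (chr5:33652575-33652824, minus strand) are printed because all 6 main summits fall within them.
Slbp: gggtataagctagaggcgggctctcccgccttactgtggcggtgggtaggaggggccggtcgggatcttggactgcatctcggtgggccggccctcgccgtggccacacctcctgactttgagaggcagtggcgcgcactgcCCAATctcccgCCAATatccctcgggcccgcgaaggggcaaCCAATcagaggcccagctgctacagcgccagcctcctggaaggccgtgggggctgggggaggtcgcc

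The 3 CCAAT boxes of Slbp started at −108, −97 and −67 bp, and the 6 main summits lay between −103 and −56 bp, over this cluster. Neither a CHR element nor an E2F core of these letters occurred in its window.

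**Figure D2:**
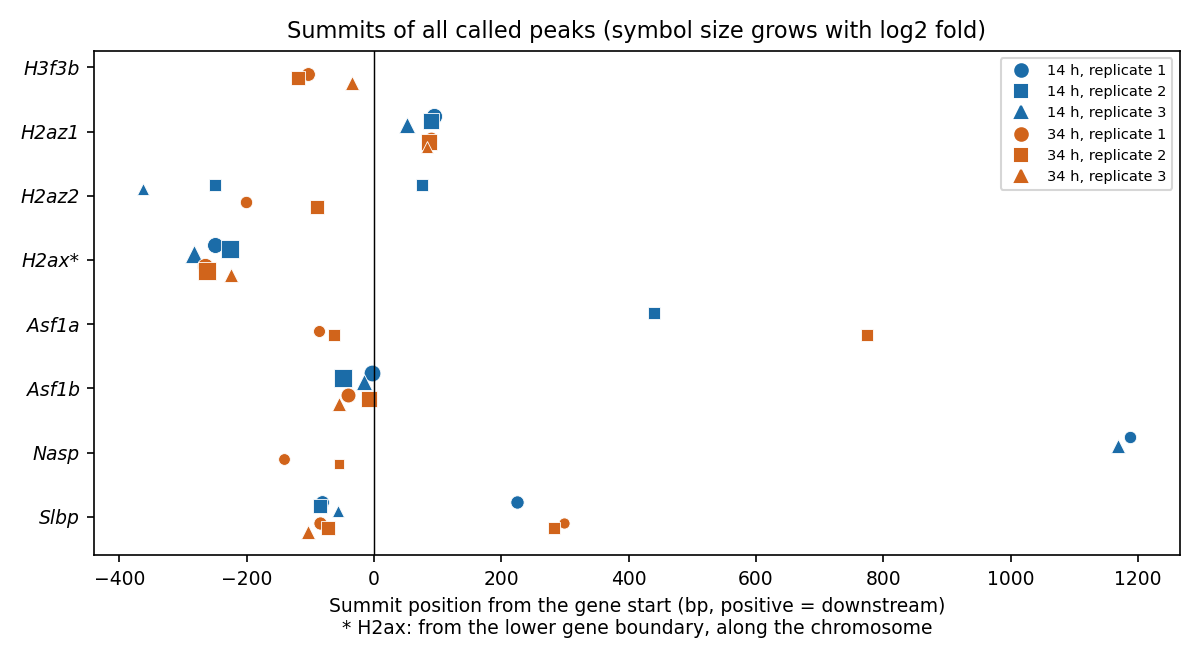
Summit of every called peak of the 8 genes with a peak, in bp from the gene start of the promoter table (positive downstream; H2ax from its lower boundary along the chromosome), by time (colour) and replicate (symbol), with symbol size growing with log2 fold. Summits of H2az1, H2ax and Asf1b and the main summits of Slbp cluster in all libraries, and Slbp has second summits at 225, 283 and 299 bp. Those of Nasp lie at 1169 and 1188 bp at 14 h and, at 34 h, upstream of that start but within the annotated gene.

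Over the 9 windows, CCAAT occurred in 8, in all but H1f0, and at least 2 copies occurred in 6 (H2az1, Nasp, Slbp, Asf1b, H2az2 and H3f3b). Of all 32851 windows, 37.4% held CCAAT and 11.7% at least 2 copies. Of the 416 windows touching a region with a peak in all 6 libraries, 58.2% held CCAAT and 32.2% at least 2. The E2F core of 7 letters was in 1 of 9 windows, in 9.57% of all and in 43.0% of the 416. The CHR element was in 3 of 9 (Nasp, Asf1b and H2az2), in 17.9% of all and in 31.0% of the 416. GGGCGG was in 7 of 9, in 35.7% of all and in 72.8% of the 416. The 416 windows were richer in GC than all windows (median 62.0% against 52.7%), and base composition alone changes how often such short letters occur; its part was not tested.

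Each gene's change was set beside that of other sites, since the median of the caller's background was higher in every library of 34 h. Each time had 1 input, shared by its libraries. At H2ax the background of replicate 2 of 14 h (3.00) was above all those of 34 h (2.13, 2.55 and 2.40). Over the 428 regions with a peak in all 6 libraries, the median fold was 11.3, 17.3 and 12.0 at 14 h and 9.62, 12.3 and 7.57 at 34 h, while the median background was 1.41, 1.80 and 1.53 and then 2.42, 2.73 and 2.47. The mean log2 fold was lower at 34 h in 354 of the 428, with a median change of −0.41. H2az1 changed by −0.97, at percentile 9.11 of the regions. Asf1b changed by −0.55, H2ax by −0.26 and Slbp by −0.15. Relative to the median of all regions, the change of H2az1 stayed between −0.77 and −0.36 with each library left out in turn, and that of Slbp between 0.12 and 0.39. H2ax ranged from 0.01 to 0.30 and Asf1b from −0.23 to −0.04. These are descriptions with no test, since presence in the lists chose the genes.

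**Figure D3:**
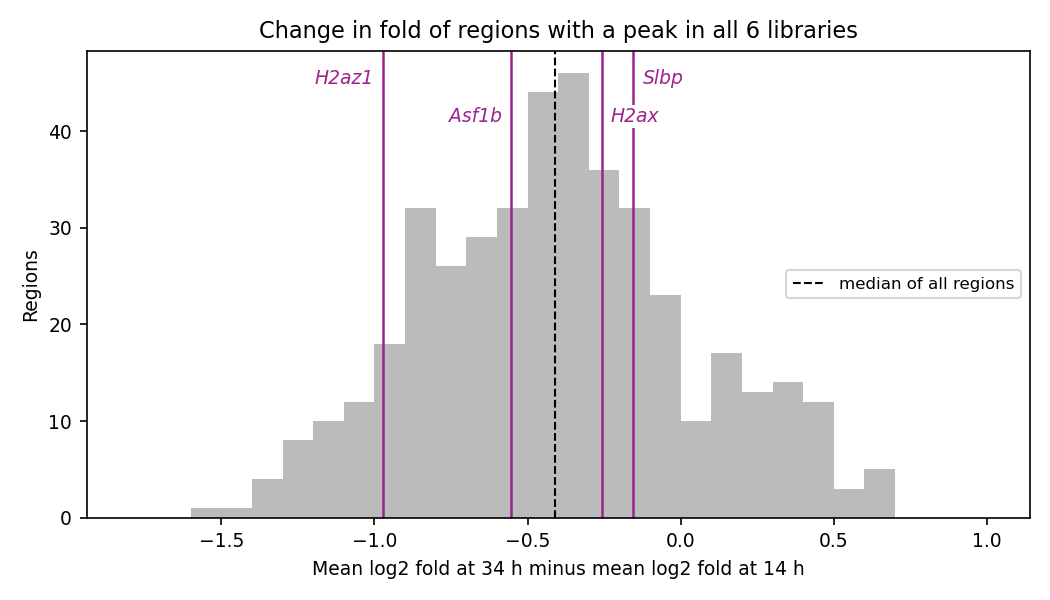
Number of regions (vertical axis) by the mean log2 fold at 34 h minus that at 14 h (horizontal axis), for the 428 regions with a peak in all 6 libraries; the dashed line is their median and purple lines are the 4 genes among them. H2az1 lies to the left of most regions at −0.97, Asf1b (−0.55) lies left of the median of −0.41, and H2ax (−0.26) and Slbp (−0.15) lie right of it.

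Ranked by fold within the same 428 regions, H2az1 stood 99th, 188th and 112th in the replicates of 14 h and 338th, 146th and 244th at 34 h. H2ax stood 119th, 127th and 63rd, then 52nd, 29th and 92nd. The ranks of Asf1b were 73, 100 and 142, then 135, 95 and 77, and those of Slbp 285, 357 and 367, then 296, 353 and 216. The rank of H2az1 in replicate 2 of 34 h lay within its ranks of 14 h, and the other ranks of 34 h lay below them.

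Summit position was compared between times for these 4 genes, whose peaks of all 6 libraries merged into a single region. That requirement keeps the summits of a gene close together. Genes with peaks at separate sites, such as Nasp, could not enter. The test therefore asks about shifts within a shared region and cannot show that sites stay the same between times. The mean summit of H2az1 was at 78.7 ± 23.3 bp at 14 h and 86.0 ± 3.00 bp at 34 h (SD, n = 3 each), a difference of 7.33 bp. The differences were −12.3 bp for Asf1b, −12.7 bp for Slbp and 2.00 bp for H2ax. No difference passed an exact two-sided permutation test over libraries (p = 1.0, 0.7, 0.5 and 0.9 for H2az1, Asf1b, Slbp and H2ax, all 1.0 after Benjamini-Hochberg adjustment over 4 tests), and 3 against 3 libraries cannot go below 0.1. The 6 summits of a gene spanned 43 bp at H2az1, 57 at H2ax, 52 at Asf1b and 47 at Slbp, where the median span of the 428 regions was 53 bp.

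Genes with the most similar folds over the 6 libraries were sought by Euclidean distance in log2 fold, among the 490 or 491 other genes with a peak in all 6. The nearest to H2az1 were Zwilch and Rpl4, which share a peak (distance 0.338), and Mns1 (0.509). Those of H2ax were Cep128 (0.422) and the pair Cenpp and Nol8 (0.458). Those of Asf1b were C2cd5 (0.349) and the pair Paqr7 and Aunip (0.372), and those of Slbp were Sf3b5 (0.387), Bahcc1 (0.484) and Ccnb1 (0.504). The distance takes in both the height and its pattern over the 6 libraries, which all genes share.

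The wider set of chaperone, exchange and histone mRNA genes numbered 78 in 7 lists, of which 17 (21.8%) had a region of at least 2 libraries at 14 h and 16 (20.5%) at 34 h. The share of all genes was 4.27% and 8.79%, as above. Neighbouring genes whose windows take in the same peaks were not looked up for these lists, so no peak is assigned to the named gene alone. All 4 CENP-A deposition genes examined had a region of at least 2 libraries at both times. CENP-A is the centromeric H3 variant, HJURP its chaperone, and the MIS18 proteins mark where it is loaded. Mis18a was the highest of them, with a mean fold of 32.0 ± 10.5 at the earlier time and 13.8 ± 4.81 at the later (SD, n = 3 each). Hjurp stood at 17.6 ± 3.36 and 10.1 ± 2.34. Oip5, the MIS18 partner gene, stood at 7.43 ± 1.31 and 11.9 ± 3.71, and its values of 34 h were all above those of 14 h. Cenpa itself had folds from 6.77 to 12.0 at 14 h and 5.70 and 7.98 in 2 libraries of 34 h.

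Among 15 CAF-1 and nucleosome assembly genes, regions were found for 6 at 14 h and for 5 at 34 h. Of all genes, 4.27% had such a region at 14 h and 8.79% at 34 h. Nothing is read from the gap to these shares, here or for the H3.3 deposition genes below. Mms22l, whose product works with TONSL on new histones at forks, was the highest (37.4 ± 8.34 and 32.3 ± 8.09, SD, n = 3 each). Hat1, which acetylates new H4, stood at 9.32 ± 2.74 and 10.1 ± 2.88, and Chaf1a, the large CAF-1 subunit gene, at 8.68 ± 1.81 and 7.71 ± 2.35. Tonsl and the co-chaperone gene Dnajc9 had folds from 4.91 to 9.90. Chaf1b had folds from 5.43 to 7.02 in 3 libraries of 14 h and 5.52 in replicate 2 of 34 h. Dek was the one of 7 H3.3 deposition genes with a region (8.88 ± 1.53 in 3 libraries of 14 h; 5.95 and 8.93 in 2 of 34 h). Hira, which deposits H3.3, had a peak in replicate 2 of 34 h alone (5.75).

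Of the 11 H2A.Z and H2A exchange genes, Yeats4 had a region at 14 h (10.5 ± 0.702, SD, n = 3) and a peak in replicate 2 alone at 34 h (7.12). Anp32e, the chaperone that removes H2A.Z, had regions at both times, with folds from 5.11 to 8.56. Ep400 (5.14 and 6.72) and Actl6a (6.98 and 6.23) had one at 34 h. Of 4 FACT and transcription chaperone genes, Supt16 had one at 34 h (6.48 and 5.20). Of 12 other replication-independent histone genes, Cenpa was the one with a region, at both times. Of all genes, 4.27% had one at 14 h and 8.79% at 34 h, and nothing is read from a single gene beside these shares. H3f5 and H1f9, also listed, had no match in the gene table.

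Histone mRNA production and decay had 4 of 26 genes with a region at 14 h and 2 of 26 at 34 h. The share of all genes was 4.27% and 8.79%, and no difference from it is read from so few genes. Casp8ap2, which encodes the processing factor FLASH that acts with SLBP, had folds of 14.5 and 16.0 in 2 libraries of 14 h and 10.3, 12.9 and 7.29 at 34 h. Eri1, an exonuclease that trims histone mRNA, stood at 9.11 ± 3.06 and 6.90 ± 1.99 (SD, n = 3 each). Ccne1, the cyclin E gene, stood at 14.3 ± 4.11 at 14 h and had a peak in replicate 2 alone at 34 h (10.5). Lsm11, a U7 particle gene, had folds of 8.52 and 4.93 at 14 h and 4.54 in replicate 2 of 34 h. Npat, the activator of histone gene transcription, had a peak in replicate 2 of 34 h alone (4.75).

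**Figure D4:**
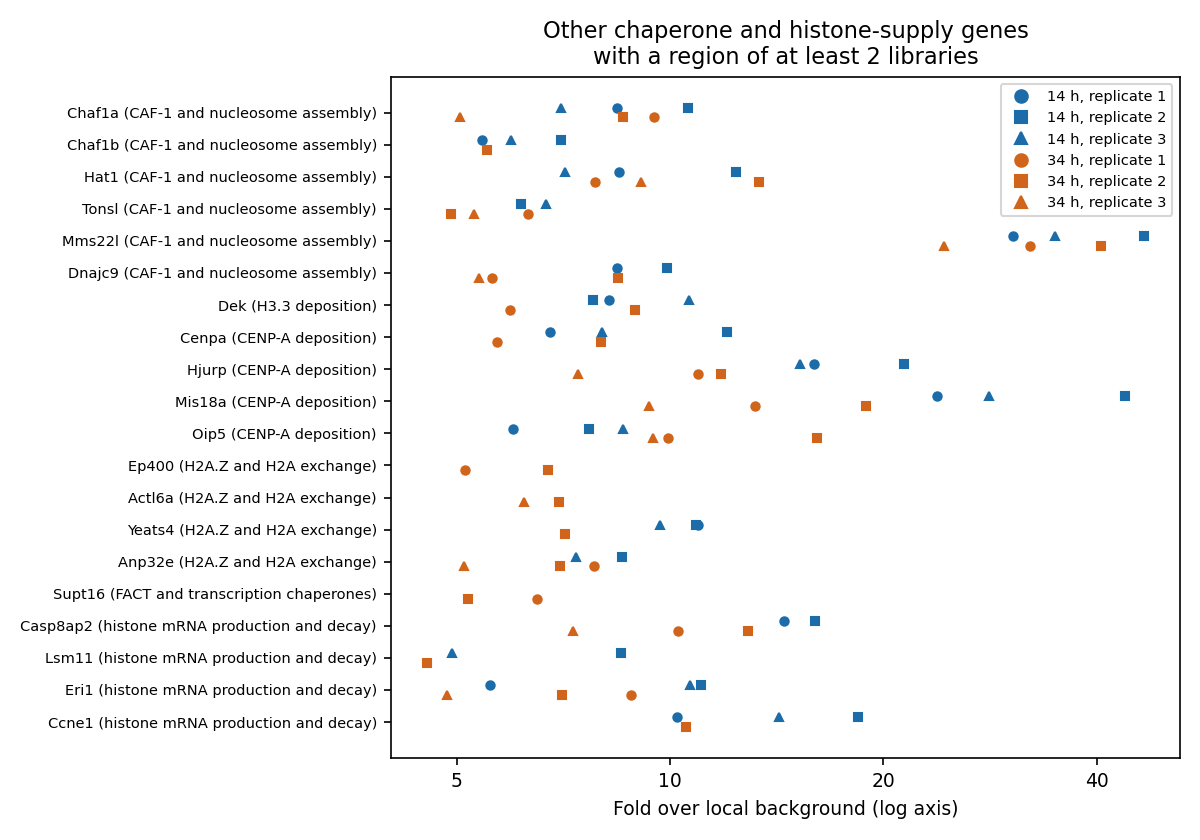
Fold over local background (log axis) of the other chaperone, exchange and histone mRNA genes with a region of at least 2 libraries at either time, by time (colour) and replicate (symbol); a missing symbol is a library without a peak. Mms22l and Mis18a have the highest values, and Oip5 is the gene whose 3 values of 34 h all lie above those of 14 h.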

How the data were processed

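Peak lists of 6 APOBEC2 IP libraries were used, and no list belongs to the 2 inputs. The submitters' processing notes name Subread, MACS2 and mm10, without tool versions. The threshold of calling is not given in the sources used here. Per the peak names in the deposited lists, each library was called alone against the input of its time. Each peak's fold, a deposited linear ratio, sets the IP against the local background at the summit, with a constant added to both. Significance is deposited as −log10 p and −log10 q, and the deposited score is a whole number made from −log10 q.

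Gene boundaries, starts and upstream sequences came from RefSeq tables on GRCm38.p6, the assembly of mm10. All 10 genes matched the gene table and 9 the promoter table. A gene counted when a merged region (overlap of at least 1 bp) of at least 2 of 3 libraries lay inside it or within 1 kb. Fragments at each summit were solved from the authors' fold and p-value and matched the deposited −log10 p within 0.001 for 100% of peaks. The fold was taken as fragments plus 1 over background plus 1, so it is lower than fragments over background. The 95% intervals of the fragments are exact Poisson intervals, and those of fold follow from them with the background held fixed. Both cover the counting error of the fragments only and leave out any error of the background. Scripts ran in Python 3.11.15 with scipy 1.17.1 and were tested on simulated data.

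The genes and lists were chosen with earlier results of these data known, so counts are descriptions, set beside all 21887 protein-coding genes. Summit positions were compared between times with an exact two-sided permutation test. All 10 genes are named, as is every gene of the wider lists with a region of at least 2 libraries. Of the genes first listed, 2 had no match and 1 more is not reported here. A planned comparison of protein sequences was not run.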

Additional observations from a re-analysis of the deposited data

How the results depend on the processing

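The count of genes with a region of at least 2 libraries (6 of 10 at 14 h, 8 of 10 at 34 h) was 6 and 7 at a −log10 q of at least 5, 5 and 6 with lists of equal length, 5 and 8 without flanks, 5 and 7 within 1 kb of a gene boundary only, and unchanged with a 5 kb flank, with summits in place of overlaps, or with peaks anywhere in the window (the last chosen after seeing the data). Requiring all 3 libraries gave 4 and 5, fewer by construction, and any library 7 and 8. With a library left out, counts ran from 4 to 5 at 14 h and from 5 to 8 at 34 h. The share of all genes, 4.27 and 8.79% as reported, was 3.75 and 3.16% with lists of equal length, so that it was no longer higher at 34 h, 2.94 and 3.92% with all 3 libraries and 6.96 and 19.1% with any; under the other settings with 3 libraries a time it was 3.70 to 4.96% and 7.29 to 10.0%. With the peak nearest the start, the mean fold of H2az2 at 14 h became 5.93 and that of Asf1a at 34 h 5.85; the other genes' highest peak was also the nearest or their only one. With a library left out, the summit difference between times ran from −6.00 to 15.5 bp for H2az1 and from −12.7 to 15.3 bp for H2ax, changing sign without replicate 3 of 14 h for both and without replicate 3 of 34 h for H2ax (−10.8 bp). That of Asf1b ran from −25.7 to −2.17 bp and that of Slbp from −20.0 to −3.67 bp; no exact p was below 0.3. With the replicate block the differences of H2az1, H2ax, Asf1b and Slbp stayed at 7.33, 2.00, −12.3 and −12.7 bp (exact sign-flip p = 1.0, 1.0, 1.0 and 0.75, where 3 pairs cannot go below 0.25). Over the 428 regions, deviations of same-numbered libraries correlated weakly (r = 0.05, 0.26 and 0.08), and those of differently numbered ones at r from −0.19 to 0.12. Whether same-numbered libraries share more than a number was not tested, and the labels do not say. Summits on 10 to 30 fragments limit the lower peaks.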

Other observations

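Further letters were looked up in the same promoter windows. TGACGTCA, the cAMP response element, was in 0 of the 9 windows, 1.79% of all and 5.77% of the 416 windows touching a region of all 6 libraries. GGGTGTGG was in 0 of 9, 3.56% and 3.61%. CACGTG was in 1 of 9 (H2az1), 7.15% and 6.01%. CAGCTG, an E-box bound by myogenic factors, was in 1 of 9 (Slbp), 16.3% and 12.0%. The E2F core of 8 letters (TTTCCCGC, TTTGGCGC, TTTCGCGC or TTTGCCGC) was in 0 of 9, 2.26% and 20.7%. No factor's binding is read from these counts.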
